A study of Mus musculus with 12 samples.

Results

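The miR-34 and miR-449 family was followed in small RNA from mouse prefrontal cortex. Its members were the mature miRNAs listed under the names mmu-miR-34a-5p, mmu-miR-34b-5p, mmu-miR-34b-3p, mmu-miR-34c-5p, mmu-miR-34c-3p and mmu-miR-449a-5p, which are 6 of the 1374 known mature miRNAs with a count. Together with predicted miRNAs, 1422 miRNAs held counts, and 780 of them, all 6 members included, had at least 5 counts in at least 3 of the 12 libraries and were tested.

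The study asked how l-methionine (MET), a methyl donor precursor, acts on the response to cocaine in conditioned place preference (CPP), a test of how far an animal prefers a chamber paired with a drug. Adult male C57BL/6 mice formed 4 groups, which were SS (saline+saline), CS (cocaine+saline), MS (MET+saline) and MC (MET+cocaine). MET was given under the skin at 1 g/kg (6.6 mmol/kg), 2 times a day over 10 days by the sample labels and the paper's methods, while a legend of the paper gives a lower dose, and cocaine at 20 mg/kg into the abdomen. The medial prefrontal cortex was excised 2 h after the place preference test. Its RNA segments of 18 to 30 nt were read on a BGISEQ-500, in 3 libraries per group. Each library was a pool of 2 animals, so the spread between libraries is the spread between pools.

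Library depth, in units of 1000000 counts, was lowest in MC 16 (7.77) and highest in SS 14 (11.1), with a median of 9.36 over the 12. The group medians were 10.0 for SS, 8.47 for CS, 10.4 for MS and 7.97 for MC. Levels are given as counts per 1000000 of that total (CPM). Libraries bear the numbers of the sample titles. miR-124-3p, the classical miRNA of neurons, was the most abundant miRNA by mean over the 12 libraries, at 103198 CPM. It ran from 30002 CPM in CS 8 to 176336 CPM in SS 13, and from 33187 to 46349 CPM in the MC libraries.

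A pair of features of the libraries bears on all results. First, the profiles of 202 miRNA precursor families, with those of mir-34 and mir-449 left out, split the libraries into 3 sets. The sets cross the treatments in part, and the labels name no batch. They are set A (CS 8, CS 9 and SS 12), set C (CS 10, MC 16 and MC 17) and set B (the remaining 6, with all MS libraries). Set A held no library with MET, set B none of CS and set C none without cocaine. Set and treatment are thus partly confounded. Second, library MC 16 stood apart. It held the lowest CPM of all libraries for 303 of 739 known miRNAs (41.0%) and the highest for 149 (20.2%), or 28.6% and 32.9% after TMM scaling. It also had the lowest TMM factor, 0.675, against 1.26 in CS 8 at the other end. TMM factors rescale each library so that most miRNAs match between libraries, and they enter the tests but not the plain CPM values.

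miRNAs are cut as paired arms, 5p and 3p, from a hairpin, and bases 2 to 8 of a mature arm, the seed, select the mRNAs it represses. The 5p arms of the family are known for a shared seed. miR-34a is transcribed from its own gene, is induced by the tumour suppressor p53 and is abundant in brain. The miR-34b and miR-34c hairpins lie on a common transcript, and with the miR-449 cluster they are best known from multiciliated cells, where they act in the formation of motile cilia, as in the ependyma and choroid plexus of brain.

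Mature sequences in RefSeq (GRCm38.p6) matched 5 of the 6 members by name, and mmu-miR-34c-5p is given by name only. The 5 are shown 5′ to 3′ because their seeds divide the family, and the capitals mark bases 2 to 8.
miR-34a-5p: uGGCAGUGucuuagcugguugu
miR-34b-5p: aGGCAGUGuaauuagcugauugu
miR-449a-5p: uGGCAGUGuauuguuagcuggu
miR-34b-3p: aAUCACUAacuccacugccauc
miR-34c-3p: aAUCACUAaccacacagccagg

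miR-34a-5p, miR-34b-5p and miR-449a-5p carried the seed GGCAGUG, which 4 of the 1679 mature names in the table have, the fourth being miR-449c-5p. miR-34b-3p and miR-34c-3p carried AUCACUA, and no other name in the table has it. Aligned from the 5′ end, miR-34a-5p and miR-449a-5p had the same base at 15 of 22 positions, the first 9 included. The arms miR-34b-3p and miR-34c-3p had the same base at 17 of 22, the first 10 included. How reads that match more than 1 member were assigned is not given in the sources used here, so the division of counts between miR-34b and miR-34c arms is uncertain as far as their reads match both.

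miR-34a-5p lies at chr4:150068473-150068494 on the plus strand, within the gene Mir34a, whose 3′ end overlaps the gene model Gm37795. miR-34b-5p (chr9:51103610-51103632), miR-34b-3p (chr9:51103574-51103595) and miR-34c-3p (chr9:51103044-51103065) lie on the minus strand. Their hairpins, Mir34b and Mir34c, are 451 bases apart, within the span of Btg4 but on the opposite strand and outside its exons. miR-449a-5p (chr13:113037549-113037570, plus strand) lies within Cdc20b on the same strand and overlaps none of its exons, which places it in an intron. Gene spans are those of GENCODE M21.

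The family was made up almost wholly of miR-34a-5p. Of all family counts, between 97.0% and 99.4% in a library were miR-34a-5p (98.1% ± 0.675, SD, n = 12 libraries). Its mean over the 12 libraries was 4412 CPM, rank 29 of the 1374 known mature miRNAs, between miR-153-3p at 4705 CPM and let-7e-5p at 4199 CPM. The other members were of much lower rank. miR-34b-3p had a mean of 24.7 CPM (rank 273), miR-34c-3p 22.3 (287), miR-34c-5p 20.7 (294), miR-449a-5p 9.08 (350) and miR-34b-5p 4.03 (420). The family as a whole held 0.724% ± 0.197 of the miRNA counts (SD, n = 12).

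**Figure D1:**
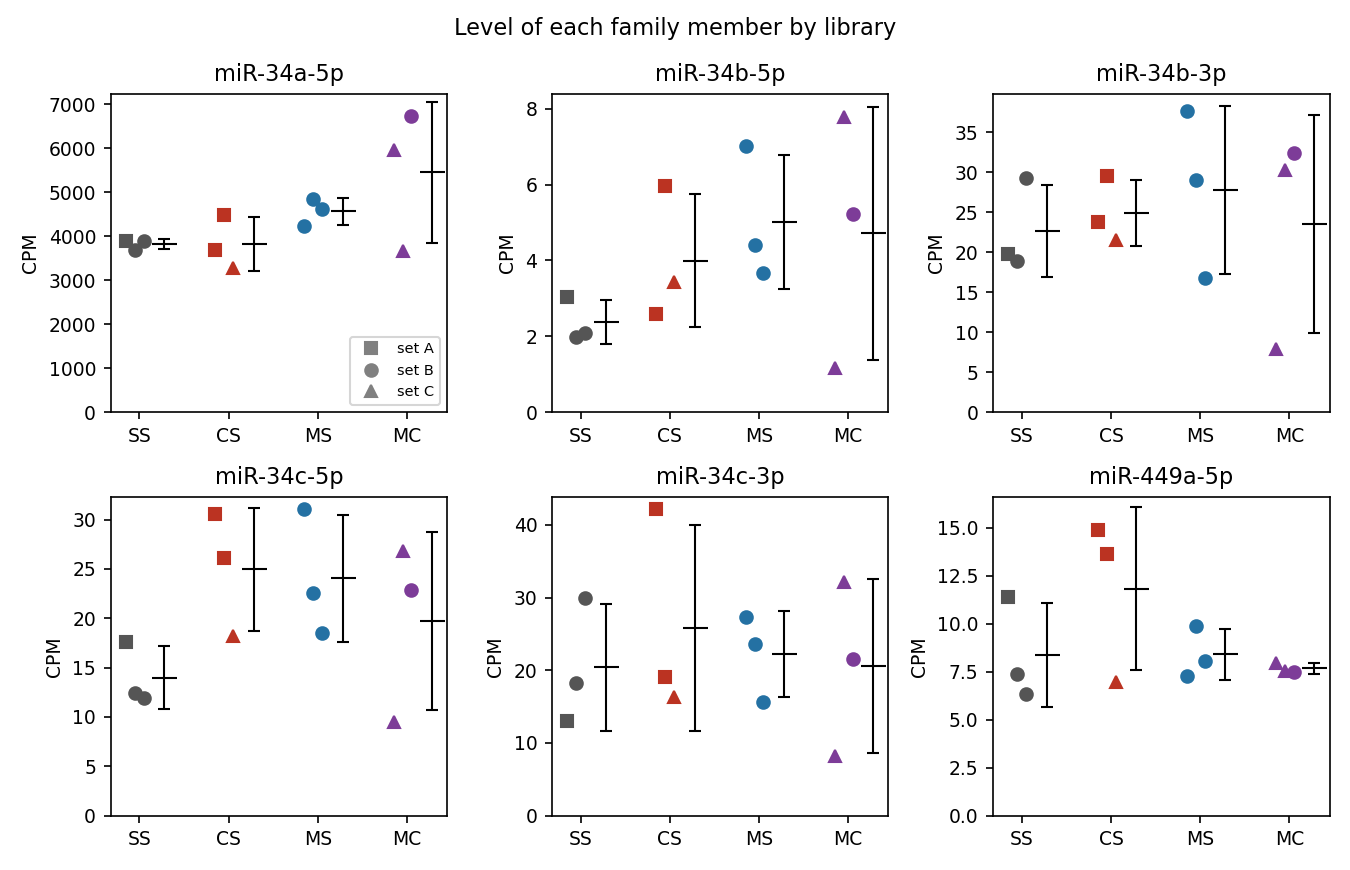
Level of each of the 6 members in CPM, with 1 point per library, treatment groups along the horizontal axis, marker shape for library set (A square, B circle, C triangle) and black bars for the group mean ± SD (n = 3); the vertical scale differs between panels and starts at 0. The miR-34a-5p panel reaches 6739 CPM while no other member passes 42.1 CPM, and 1 MC library is the lowest point in all 4 panels of miR-34b and miR-34c arms.

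miR-34a-5p, the arm induced by p53, was at 3893, 3690.5 and 3878 CPM in SS 12, 13 and 14. It was at 3686, 4490.3 and 3286 CPM in CS 8, 9 and 10. In MS 3, 4 and 23 it was at 4235, 4845 and 4604 CPM, and in MC 16, 17 and 20 at 5946, 3658 and 6739 CPM. The SS libraries lay close together, all MS libraries lay above them, and MC held both the highest values of the series and 1 value below all SS libraries. Means per group (± SD, n = 3 libraries) were 3820 ± 113 CPM for SS, 3821 ± 613 for CS, 4561 ± 307 for MS and 5447 ± 1600 for MC. In the order MC, MS, CS, SS, the gap between MS and CS was larger than either SD, and the other gaps were not. With TMM-scaled CPM the order became MC, MS, SS, CS and no gap between neighbours was larger than the larger SD.

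miR-34b-5p, the least abundant member and a carrier of the GGCAGUG seed, was counted 9 to 77 times per library. Its CPM was 3.04, 1.99 and 2.08 in SS 12, 13 and 14, and 2.60, 5.97 and 3.42 in CS 8, 9 and 10. It was 7.02, 4.39 and 3.66 in MS 3, 4 and 23, and 1.16, 7.77 and 5.22 in MC 16, 17 and 20. All MS libraries were above all SS libraries, while MC 16 and MC 17 were the lowest and the highest of the series. SS libraries had a mean of 2.37 ± 0.581 CPM, CS libraries 4.00 ± 1.76, MS libraries 5.02 ± 1.77 and MC libraries 4.72 ± 3.34 (SD, n = 3).

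miR-34c-5p, the 5p arm of the neighbouring hairpin, was at 17.6, 12.4 and 11.9 CPM in SS 12, 13 and 14 and at 30.6, 26.1 and 18.2 CPM in CS 8, 9 and 10. It was at 31.1, 22.6 and 18.5 CPM in MS 3, 4 and 23 and at 9.53, 26.8 and 22.8 CPM in MC 16, 17 and 20. CS and MS did not overlap SS on this scale, and MC spanned the SS range. The mean was 14.0 ± 3.15 CPM for SS, 24.9 ± 6.25 for CS, 24.0 ± 6.43 for MS and 19.7 ± 9.06 for MC (SD, n = 3).

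The 3p arms, which carry the other seed, showed no separation of groups. miR-34b-3p ranged from 18.9 to 29.3 CPM for SS with a median of 19.8, 21.5 to 29.5 for CS (23.8), 16.7 to 37.7 for MS (29.1) and 7.85 to 32.4 for MC (30.3). miR-34c-3p ranged from 13.0 to 30.0 CPM for SS with a median of 18.2, 16.4 to 42.1 for CS (19.1), 15.7 to 27.3 for MS (23.6) and 8.24 to 32.1 for MC (21.5). All groups overlapped for both arms, and MC 16 was the lowest library for each. In TMM-scaled CPM it was still the lowest for miR-34b-5p and both 3p arms, but not for miR-34c-5p, which was then lowest in SS 14.

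miR-449a-5p, from the cluster within Cdc20b, was at 11.4, 7.37 and 6.32 CPM in SS 12, 13 and 14. It was at 14.9, 13.7 and 6.97 CPM in CS 8, 9 and 10. In MS 3, 4 and 23 it was at 7.29, 9.89 and 8.09 CPM, and in MC 16, 17 and 20 at 7.98, 7.53 and 7.51 CPM. The 3 libraries of set A (SS 12, CS 8 and CS 9) were the highest of the series in plain CPM. The MC libraries were close together in plain CPM but not in TMM-scaled CPM, where MC 16, at 11.8, was above CS 8 and the other 2 were near 6.4. Its mean was 8.37 ± 2.69 CPM for SS, 11.8 ± 4.26 for CS, 8.42 ± 1.33 for MS and 7.67 ± 0.267 for MC (SD, n = 3). For the 5 members other than miR-34a-5p, no gap between neighbouring group means was larger than the larger SD of the pair, on either scale. In bulk tissue, fewer cells of a type and less RNA per cell cannot be told apart for this or any other member.

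Groups were compared on the counts of all 12 libraries by the quasi-likelihood test of edgeR, and p was adjusted over the 780 miRNAs tested (Benjamini-Hochberg). Without TMM factors the median log2 fold change of all miRNAs moved from 0.04 to 0.30 for CS vs SS, from -0.03 to 0.21 for MS vs SS and from 0.06 to -0.27 for the interaction, so a difference seen in plain CPM is to be read against that shift.

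Cocaine against saline (CS vs SS) gave no call among the members, 0 of 6, with 0.0% of all 780 miRNAs called and 22 of them (2.82%) at an unadjusted p under 0.05. DESeq2 also called 0. The largest fitted difference was that of miR-34c-5p, a log2 fold change of 0.55 ± 0.30 (SE; edgeR adjusted p = 0.994), and miR-34b-5p followed at 0.53 ± 0.51, or 0.11 ± 0.56 without CS 9. miR-34a-5p was at -0.25 ± 0.31 and the other 3 members lay between -0.10 and 0.21. In plain CPM, miR-34c-5p was the only member of the 6 whose CS libraries were all above the SS libraries, as were 12.3% of the miRNAs tested, and 0 of 6 members were lower in this sense, against 0.897%. With TMM-scaled CPM the groups overlapped for all 6 members, while 5.13% of the miRNAs were higher and 5.38% lower.

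Methionine against saline (MS vs SS) also gave 0 of 6 members called and 0.0% of all miRNAs by edgeR, with 75 miRNAs (9.62%) at an unadjusted p under 0.05. DESeq2 called 19 of the 531 miRNAs to which it gave an adjusted p here, none of them a member. miR-34b-5p had the largest fitted log2 fold change, 0.85 ± 0.51 (SE; edgeR adjusted p = 0.651), and miR-34c-5p the next, 0.54 ± 0.30 (adjusted p = 0.605). Without MS 3 they were 0.49 ± 0.56 and 0.27 ± 0.32. miR-34a-5p was at 0.01 ± 0.31 and miR-449a-5p at -0.25 ± 0.36. In plain CPM, miR-34a-5p, miR-34b-5p and miR-34c-5p were higher in all MS libraries than in all SS libraries, as were 18.7% of the miRNAs tested, and 0 of 6 members were lower, against 4.1%. With TMM-scaled CPM the first held for miR-34b-5p, as for 12.8% of the miRNAs (10.6% were lower), and not for the other 2. The SS libraries serve in both comparisons, so the values of miR-34b-5p and miR-34c-5p in the first and the second are not independent.

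Methionine on a cocaine background (MC vs CS) gave 0 of 6 members called, against 0.0% of all miRNAs called and 58 (7.44%) at an unadjusted p under 0.05, and DESeq2 called 0. miR-34a-5p was the only member with an unadjusted p under 0.05 (0.0416), at a log2 fold change of 0.72 ± 0.31 (SE; edgeR adjusted p = 0.577). Without MC 16 its log2 fold change was 0.33 ± 0.25 (edgeR adjusted p = 0.726), and without MC 17 it was 1.02 ± 0.24 (adjusted p = 0.308). miR-449a-5p was at -0.40 ± 0.36 and miR-34c-5p at -0.28 ± 0.30, and with library set as a covariate both turned, to 0.11 ± 0.40 and 0.013 ± 0.37. CS and MC have only set C in common, with CS 10 its only CS library, so that fit compares them directly in few libraries. No member's MC libraries all lay above or all below the CS libraries, whereas 2.95% of the miRNAs tested were higher and 2.05% lower in this sense (4.49% and 4.36% with TMM-scaled CPM, again without a member).

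**Figure D2:**
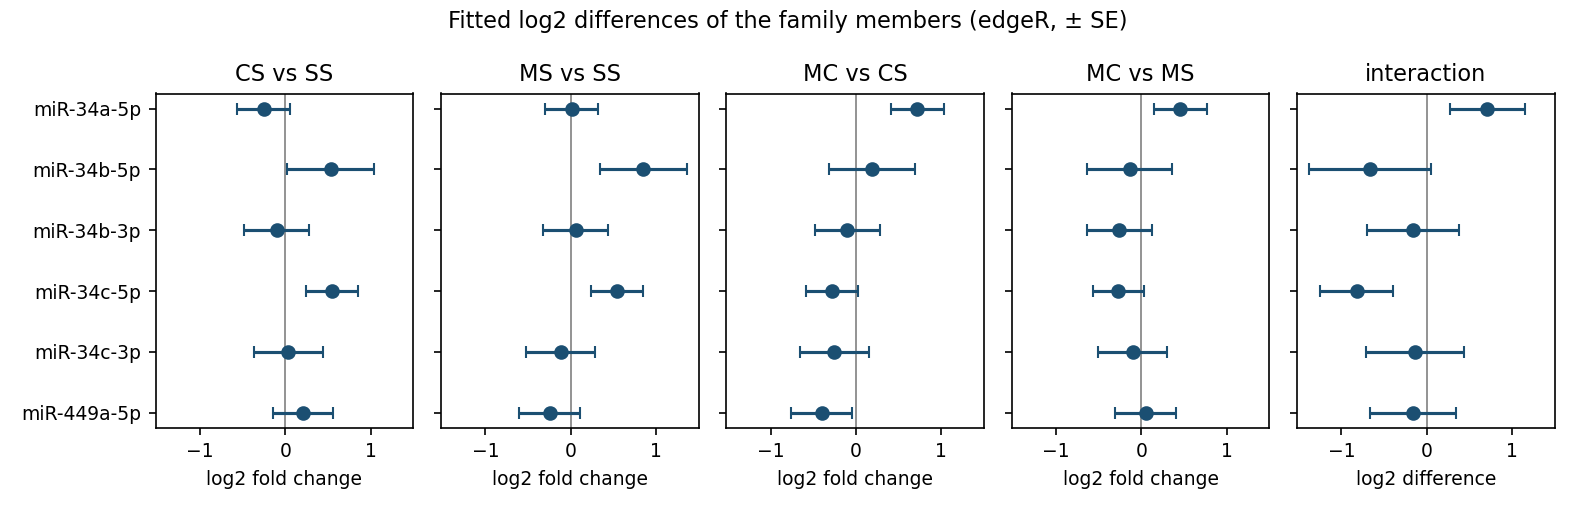
Fitted log2 differences (edgeR, horizontal axis) of the 6 members with ± 1 SE, in 1 panel for each of the 4 comparisons and for their interaction, the line at 0 marking no difference. The highest points are miR-34b-5p in MS vs SS (0.85) and miR-34a-5p in MC vs CS (0.72), and no point passed the threshold after adjustment.

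Cocaine on a methionine background (MC vs MS) gave 0 of 6 members called and 0.0% of all miRNAs, with 65 (8.33%) at an unadjusted p under 0.05 and 0 by DESeq2. miR-34a-5p was at a log2 fold change of 0.46 ± 0.31 (SE; edgeR adjusted p = 0.675), at 0.05 ± 0.25 without MC 16 and at 0.76 ± 0.24 without MC 17 (adjusted p = 0.240). The other 5 members lay between -0.27 and 0.05. Groups overlapped for all 6 members, while 5.64% of the miRNAs tested were higher and 2.69% lower in all MC than in all MS libraries. With TMM-scaled CPM the groups also overlapped for all 6, beside 4.36% higher and 4.23% lower among all miRNAs.

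The interaction asks whether the cocaine difference with methionine, MC minus MS, differs from that without it, CS minus SS. No member was called, 0 of 6, beside 0.0% of all miRNAs and 34 (4.36%) at an unadjusted p under 0.05, and DESeq2 called 0. miR-34a-5p had a log2 difference of 0.71 ± 0.44 and miR-34c-5p one of -0.82 ± 0.43 (SE; edgeR adjusted p = 0.804 for both). These were the highest and the lowest values among the members. Without MC 16 they were 0.34 ± 0.34 and -0.62 ± 0.40, and without MC 17 that of miR-34a-5p was 1.01 ± 0.33 (edgeR adjusted p = 0.434). Without TMM factors, miR-34a-5p was at 0.26 ± 0.38 and miR-34c-5p at -1.12 ± 0.59, where the median of all miRNAs was -0.27.

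Read as a list, the members had a median log2 fold change of 0.12 in CS vs SS (all miRNAs 0.04), 0.03 in MS vs SS (all -0.03), -0.18 in MC vs CS (all 0.08), -0.12 in MC vs MS (all 0.05) and -0.16 for the interaction (all 0.06). Without MC 16, an alternative chosen after seeing the data, the median turned to 0.10 in MC vs CS (all -0.022) and 0.041 in MC vs MS (all -0.0060), and it was -0.087 for the interaction (all -0.025). The members of 1 hairpin or transcript share their source, so these are not 6 separate measurements.

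The arms of a hairpin are made in equal number, and the ratio in which they are kept is a property of each miRNA. By the deposited counts, the 3 hairpins of the miR-34 members differed widely in it. The shares of miR-34b and miR-34c, and the tests on them below, depend on how reads matching both were assigned. That rule is not given, and its part in the shares was not tested. For miR-34a, the passenger arm miR-34a-3p was counted 8 to 46 times per library, or 0.173 to 0.948 counts for each 1000 of miR-34a-5p. It was called in no comparison, its largest fitted log2 fold change being 0.90 ± 0.41 in MC vs CS (edgeR adjusted p = 0.577). For miR-34b, the 3p arm was the higher in 12 of 12 libraries, and the 5p arm held 13.6% ± 3.82 of the counts of both arms (SD, n = 12). For miR-34c the arms were near equal, at a 5p share of 48.8% ± 8.46, and the 5p arm was the higher in 7 of 12.

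The 5p share of miR-34b was 13.3%, 9.52% and 6.61% in SS 12, 13 and 14, and 9.82%, 16.8% and 13.7% in CS 8, 9 and 10. It was 15.7%, 13.1% and 17.9% in MS 3, 4 and 23, and 12.9%, 20.4% and 13.9% in MC 16, 17 and 20. SS held the lowest value and MC the highest, and all groups overlapped. The 5p share of miR-34c was 57.5%, 40.6% and 28.4% for the SS libraries, in the same order, 42.1%, 57.8% and 52.7% for CS, 53.3%, 48.9% and 54.1% for MS, and 53.6%, 45.5% and 51.4% for MC. SS 14 was the lowest library for both hairpins, and for miR-34c the SS libraries were the farthest apart of the 4 groups.

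The log2 ratio of the arms did not pass the test among the 4 groups for miR-34b (F = 2.30, p = 0.147, adjusted over the 2 hairpins 0.295) or for miR-34c (F = 0.829, p = 0.534, adjusted 0.534; exact permutation tests over all groupings of the libraries). Without SS 12 alone, F was 3.92 for miR-34b (p = 0.0537) and 4.25 for miR-34c (p = 0.0492), and the adjusted p was 0.0537 for each (exact permutation tests). With each library left out in turn, F ran from 1.03 to 3.92 for miR-34b and from 0.0872 to 4.25 for miR-34c, the lowest of each being without SS 14. In SS 14, the Wilson 95% interval of the 5p share was 4.44% to 9.72% for miR-34b and 24.5% to 32.7% for miR-34c. These intervals cover counting error only, since reads without molecular identifiers are not independent molecules.

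**Figure D3:**
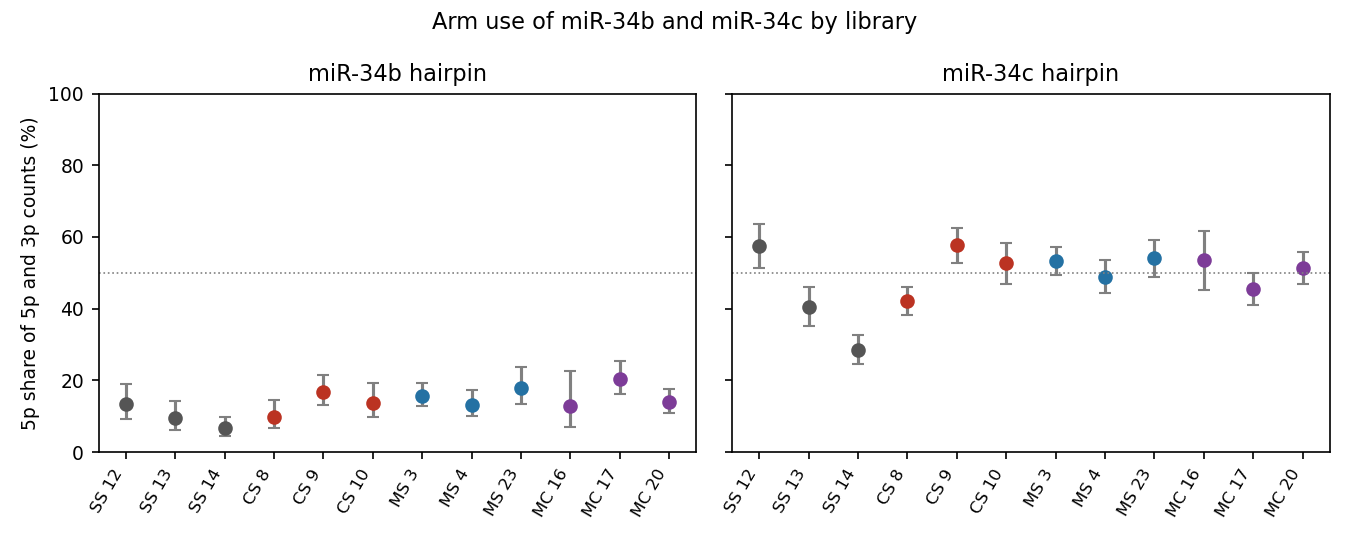
Share of the 5p arm in the counts of both arms (%, vertical axis from 0 to 100) for the miR-34b and miR-34c hairpins in each of the 12 libraries, coloured by treatment group, with Wilson 95% intervals and a dotted line at 50%. All miR-34b points lie between 6.61% and 20.4%, and the miR-34c points lie on both sides of the line, lowest in SS 14 at 28.4%.

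The balance between miR-34a-5p and the miR-34b and miR-34c arms stood apart in MC 16. Counts of miR-34a-5p were 37.2 to 84.4 times the summed counts of the 4 miR-34b and miR-34c arms in 11 libraries, and 222 times in MC 16. There, the summed arms were at 26.8 CPM, the lowest of the series, against 51.6 to 103 CPM elsewhere, while miR-34a-5p was the second highest of the series. The count of miR-34a-5p was 248 to 897 times that of miR-449a-5p.

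Across the 12 libraries, the log2 CPM of the members was compared in all 15 pairs, with permutation p-values (two-sided) adjusted over the pairs. The permutations treat the libraries as exchangeable, although these fall into sets. All values of a library also share its depth and its scaling. A low p therefore does not set a pair of members apart from pairs with other miRNAs. Pearson's r was 0.838 for miR-34b-5p with miR-34c-5p (p = 0.00065, adjusted p = 0.00975; Spearman's rho 0.783, p = 0.00354, adjusted 0.0408, permutation test). It was 0.782 for the arms of miR-34b with each other (p = 0.00223, adjusted p = 0.0157; rho 0.762, p = 0.00544, adjusted 0.0408, permutation test). For the 3p arms miR-34b-3p and miR-34c-3p it was 0.777 (p = 0.00313, adjusted p = 0.0157; rho 0.699, p = 0.0144, adjusted 0.0548, permutation test). miR-34b-3p with miR-34c-5p had an r of 0.715 (p = 0.00626, adjusted p = 0.0235; rho 0.699, p = 0.0146, adjusted 0.0548, permutation test). The remaining 11 pairs did not pass the adjustment, the arms of miR-34c included (r = 0.642, p = 0.0238, adjusted p = 0.0714, permutation test). Without SS 14 the arms of miR-34c did pass, with an r of 0.852 (n = 11, p = 0.00065, adjusted p = 0.00325, permutation test), and without MC 16 their r was 0.429 (adjusted p = 0.468, permutation test). miR-34a-5p had an r between -0.371 and -0.041 with the 5 other members. The division of counts between miR-34b and miR-34c arms is uncertain where reads match both. Whether such reads had a part in the r between these arms was not tested.

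These relations rested in part on MC 16. Without it, 0 of the 15 pairs passed the adjustment, and the r of miR-34b-5p with miR-34c-5p was 0.749 (n = 11, p = 0.00876, adjusted p = 0.131, permutation test). The r of miR-34a-5p with the other members, all below 0 over the 12 libraries, was then 0.355 for miR-34b-5p, 0.357 for miR-34b-3p, 0.208 for miR-34c-5p, -0.094 for miR-34c-3p and 0.0018 for miR-449a-5p, with no adjusted p under 0.05. With the 2 libraries farthest from the median of the first member left out, MC 16 among them each time, the 4 pairs had an r of 0.738, 0.602, 0.488 and 0.537 in the order given. Within library set B (n = 6, exact permutation tests), r was 0.993 for miR-34b-5p with miR-34c-5p (p = 0.00278, adjusted p = 0.0417), and the other 3 pairs did not pass, at 0.579, 0.846 and 0.558. In the same set, miR-34a-5p had an r of -0.129 with miR-34c-3p and of 0.317 to 0.59 with the other 4 members, none of which passed. Sets A and C held 3 libraries each, too few for a value. With TMM-scaled CPM, 2 pairs passed. They were miR-34b-5p with miR-34c-5p (r = 0.736, adjusted p = 0.045, permutation test) and, in the opposite direction, miR-34a-5p with miR-34c-3p (r = -0.712, adjusted p = 0.045, permutation test).

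**Figure D4:**
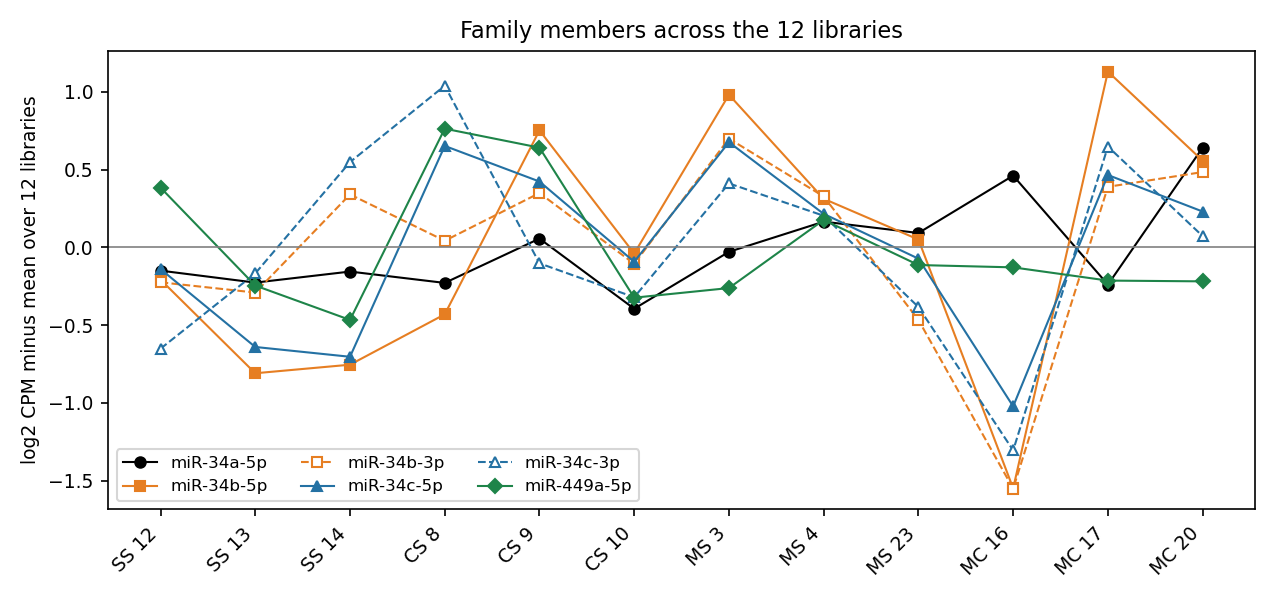
log2 CPM of each member minus its own mean over the 12 libraries (vertical axis), by library along the horizontal axis, with filled markers and solid lines for 5p arms and open markers and dashed lines for 3p arms. The 4 arms of miR-34b and miR-34c drop together in MC 16, where miR-34a-5p is above its mean, and rise together in MS 3 and MC 17; lines join libraries as a guide only, since libraries have no order.

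Among 739 known miRNAs outside the family, those closest to each member in log2 CPM over the 12 libraries were found as a description, with no test, since all values of a library share its depth and its scaling. The closest to miR-34a-5p was miR-667-5p (r = 0.804). The closest to miR-34b-5p was miR-193a-3p (r = 0.899), which was also the second closest to miR-34c-5p (r = 0.91) after miR-20a-5p (r = 0.952). miR-34b-3p was closest to miR-148a-3p (r = 0.94), miR-34c-3p to miR-344c-3p (r = 0.912) and miR-449a-5p to miR-27a-5p (r = 0.883). For each member, all of its 3 closest miRNAs had a higher r with it than any other member of the family had. These 3 were picked as the highest of 739, against only the few other members. The comparison therefore does not show that members are less alike than miRNAs outside the family.

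Other miRNAs with known ties to the family were read from lists. Of 8 miRNAs listed as responsive to p53, 7 were tested and 0 were called by edgeR in any comparison. The most abundant of them was miR-143-3p, a miRNA of smooth muscle, at a mean of 3505 CPM. Their median log2 fold change in MS vs SS was 0.66 (all miRNAs -0.03), with 6 of 7 above 0, and miR-145a-5p, which shares a cluster with miR-143, was at 0.66 ± 0.28 (SE; edgeR adjusted p = 0.499). miRNAs of a cluster share their source, so the 7 are not separate measurements. Single libraries also weighed on them, as miR-192-5p was at 1013 CPM in MS 3 against 234 and 153 in MS 4 and 23. miR-141-3p, miR-194-5p and miR-200c-3p were also highest in MS 3 among the MS libraries, and the other tested ones in MS 4. In CS vs SS the median was -0.07, in MC vs CS -0.03, in MC vs MS -0.42 and for the interaction -0.42. Single miRNAs of the list lay far from these medians, up to 3.90 in CS vs SS and 3.43 in MS vs SS, and down to -3.74 for the interaction. miR-200c-3p was at 0.697 to 2.31 CPM in SS, 6.3 to 58.2 in CS, 4.9 to 43.5 in MS and 5.4 to 126 in MC. The p53 list, with all 8 counted, summed to 902 CPM in MC 16 and to between 3440 and 5658 CPM in the other libraries, and MC 16 was the lowest library for 3 of the 8, miR-143-3p among them (776 CPM, against 3128 to 4381 CPM elsewhere). Without MC 16 the median was 0.34 in MC vs CS, -0.055 in MC vs MS and -0.17 for the interaction, and it was 0.64 in MS vs SS.

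Markers of cells that the tissue could hold beside neurons were read likewise, and 0 miRNAs of any list were called by edgeR in any comparison. For multiciliated cells the list holds the 5 arms of miR-34b, miR-34c and miR-449a with miR-449c-5p, which had 10 counts in 7 libraries and 0 in 5, where up to 3 counts are allowed for. Its sum was lowest in MC 16 (34.9 CPM) and highest in CS 8 (114 CPM), MS 3 (110 CPM) and MC 17 (105 CPM). The list of choroid plexus epithelium and of the Htr2c gene has 11 miRNAs, of which 7 were tested. Its sum was also lowest in MC 16 (735 CPM) and was highest in MS 3 (2541 CPM), and nearly all of it was miR-204-5p, at a mean of 1807 CPM. Of the 11, MC 16 was the lowest library for 4 (miR-204-5p, miR-448-5p, miR-1264-5p and miR-1298-5p) and the highest for miR-204-3p, the other arm of miR-204, at 42.1 CPM against at most 14.2 elsewhere. miR-1912-3p and miR-1912-5p had 1 count each in the series, miR-448-3p was at 0 in 1 library and miR-1264-3p at 0 in 3. Whether these cells had a part in the levels of miR-34b, miR-34c and miR-449a was not tested.

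The list of red blood cells (4 miRNAs, mostly miR-451a at a mean of 2426 CPM) summed to 387 CPM in MC 16 and to between 1496 and 3973 CPM in the other libraries, so it too was lowest in that library. In MS vs SS its median log2 fold change was 1.00 (all miRNAs -0.03), with 3 of 4 above 0 and 0 called by edgeR. miR-451a was at 2544 to 3947 CPM in the MS libraries and 1489 to 2205 CPM in the SS libraries (log2 fold change 0.46 ± 0.48, SE; edgeR adjusted p = 0.805). miR-144-3p was at 13.1 to 16.1 CPM against 2.89 to 4.62 CPM (1.71 ± 0.58; edgeR adjusted p = 0.336), and miR-486a-5p was at -1.31 ± 0.96. In plain CPM the MS libraries lay above all SS libraries for miR-451a, miR-144-3p and miR-144-5p, as for 18.7% of all miRNAs tested. With TMM-scaled CPM this held for both arms of miR-144, as for 12.8% of all miRNAs, and not for miR-451a, which was at 2246 to 3854 in MS and 1541 to 2433 in SS. Its part in the levels of the members in MS vs SS was not tested. The list of oligodendrocytes (3 miRNAs, led by miR-219a-5p at 475 CPM) ran from 392 CPM in SS 14 to 1733 CPM in CS 9. The list of neurons (6 miRNAs, led by miR-124-3p) ran from 82602 CPM in MC 17 to 220179 CPM in SS 13. By sum, MC 16 was not the lowest library for neurons (91688 CPM) or oligodendrocytes (961 CPM), but single markers there went both ways. It was the lowest library for 3 of the 6 neuron markers (miR-128-3p, miR-137-3p and miR-132-3p) and the highest for miR-129-5p. Of the 3 oligodendrocyte markers it was the lowest library for miR-219a-5p (73.5 CPM) and miR-338-3p (31.3 CPM) and the highest for miR-219a-2-3p (856 CPM), which carried the sum.

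In fitted differences, the neuron list had 0 of 6 miRNAs above 0 in MS vs SS (median log2 fold change -0.30, lowest -0.99; all miRNAs -0.03) and 1 of 6 in CS vs SS (median -0.27). Its medians in MC vs CS, MC vs MS and the interaction were -0.23, -0.04 and 0.38, and without MC 16 they were -0.11, -0.13 and 0.29. Neuron markers went both ways there, from -1.347 to 0.985 in MC vs CS and from -1.502 to 0.956 in MC vs MS. miR-124-3p was at 33187 to 46349 CPM in MC, the group with the highest mean of miR-34a-5p. It was at 30002 to 153965 CPM in CS, 35552 to 171607 CPM in MS and 70274 to 176336 CPM in SS. The choroid plexus list had medians of 0.01 (CS vs SS, turning to -0.034 without MC 16) and 0.24 (MS vs SS), with 4 of 7 above 0 in each. In the comparisons with MC its medians were -0.37 (MC vs CS), -0.46 (MC vs MS) and -0.22 (interaction), with 5 of 7 below 0 in each, and without MC 16 they were -0.19, -0.44 and -0.15. For oligodendrocytes the medians over 3 miRNAs were 0.20 (CS vs SS), 0.16 (MS vs SS), -0.33 (MC vs CS), -0.26 (MC vs MS) and -0.60 (interaction), and without MC 16 the last 3 were -0.022, 0.16 and -0.12. For red blood cells the medians outside MS vs SS were 0.29 (CS vs SS), 0.27 (MC vs CS), -0.53 (MC vs MS) and -0.68 (interaction), and without MC 16 the last 3 were 0.61, -0.11 and -0.36. The multiciliated list, 5 of whose 6 miRNAs are members of the family, had 5 tested, and its medians were 0.21 (CS vs SS), 0.06 (MS vs SS), -0.25 (MC vs CS), -0.14 (MC vs MS) and -0.16 (interaction). Without MC 16 its last 3 medians were -0.009, 0.033 and -0.29. The part of these lists in the levels of the members was not tested.

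Rows for whole precursor families added little. The mir-449 family row held 1 to 7 counts in each of the 12 libraries, 60 in all, and the mir-34 family row held 1 count in 1 library.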

How the data were processed

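Counts are those the authors deposited per small RNA and library, without normalization. TPM values, which the authors computed as the count over the library total times 1000000, were deposited beside them and equal the CPM used here (within 0.005). The counts of each of the 12 libraries add up to its stated total. Per the paper's methods, low-quality, adapter and short reads were removed and the rest mapped with AASRA. The submitters' processing notes name Bowtie and mm10. The rule for reads matching several miRNAs is not given in the sources used here. Columns of samples outside the series numbered 0.

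Groups came from the treatment labels, and no pair of the 12 libraries matched within sampling noise (66 pairs, 385 miRNAs, smallest chi-square per degree of freedom 210.6). Mature and predicted miRNAs that reached 5 counts in 3 libraries or more were fitted in edgeR 4.0.16 (R 4.3.3), with TMM factors over miRNAs, the library total as size and a coefficient for each group, which left 8 residual degrees of freedom. The quasi-likelihood F-test was used and a call needed an adjusted p of 0.05 or less. The methods name DEGseq for piRNAs, and a test that uses the spread between replicates was taken here instead. Arm ratios and correlations used a prior of 0.5 counts, with 100000 permutations for correlations over 12 libraries. Sets of libraries came from clustering precursor family profiles (median r 0.587 for 21 pairs of the same set, -0.533 for 45 others).

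miRNAs are named by a rule: the 6 members, the other arms of miR-34 and miR-449, tested miRNAs of the p53 and cell type lists, and the 3 most alike per member outside the family. Neighbours in rank and list miRNAs at or near 0 were added after their values were seen. The members and lists were chosen with earlier results of these data known. Alternatives were DESeq2 1.42.0, other scalings, filters, priors and features, 6-library fits, library set as a covariate and each library left out in turn. The fits were tested on simulated data, and no outcome of that is given here. Other steps used scipy 1.17.1, pandas 2.3.3, matplotlib 3.10.9 and numpy 2.4.6 under Python 3.11.15.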

Additional observations from a re-analysis of the deposited data

How the results depend on the processing

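The 30 fitted differences of the members (6 members in 5 comparisons) were recomputed under 21 alternative settings, which gave 624 values (the interaction has no fit of 6 libraries). In 578 of them the direction was kept, in 46 it turned, and in 0 did a member pass the threshold, the smallest adjusted p being 0.240 (edgeR, miR-34a-5p in MC vs MS without MC 17). The cause of these turns was not tested. Some settings could hardly turn a value. The fit with the miRNA total as library size gave nearly the values of the main fit. Leaving out a library outside a comparison hardly moved its fold change. The share of values that kept their direction therefore overstates how stable they are. Without TMM factors, the log2 fold change turned to 0.0001 for miR-34a-5p and 0.14 for miR-34b-3p (CS vs SS), to 0.12 for miR-34c-3p and 0.011 for miR-449a-5p (MS vs SS) and to -0.13 for miR-449a-5p (MC vs MS). DESeq2 gave -0.013 for miR-34a-5p in MS vs SS. With library set as a covariate, values turned to 0.18 for miR-34b-3p and -0.20 for miR-449a-5p (CS vs SS), to -0.056 and 0.087 for the same pair (MS vs SS), to 0.013 for miR-34c-5p and 0.11 for miR-449a-5p (MC vs CS), to 0.033 for miR-34b-3p, 0.18 for miR-34c-3p and -0.18 for miR-449a-5p (MC vs MS), and to 0.019 for miR-449a-5p (interaction). With each library left out in turn, 16 of the 30 differences turned at least once. Their ranges in CS vs SS were -0.26 to 0.11 for miR-34b-3p and -0.33 to 0.39 for miR-34c-3p. In MS vs SS they were -0.0069 to 0.12 for miR-34a-5p, -0.27 to 0.38 for miR-34b-3p, -0.33 to 0.28 for miR-34c-3p and -0.38 to 0.14 for miR-449a-5p. In MC vs CS they were -0.26 to 0.61 for miR-34b-5p, -0.31 to 0.21 for miR-34b-3p and -0.59 to 0.12 for miR-34c-3p. In MC vs MS they were -0.58 to 0.22 for miR-34b-5p, -0.52 to 0.072 for miR-34b-3p, -0.44 to 0.13 for miR-34c-3p and -0.30 to 0.20 for miR-449a-5p. For the interaction they were -0.47 to 0.17 for miR-34b-3p, -0.51 to 0.23 for miR-34c-3p and -0.54 to 0.0096 for miR-449a-5p. The differences that did not turn also moved with 1 library. In CS vs SS the ranges were -0.41 to -0.13 for miR-34a-5p, 0.11 to 0.83 for miR-34b-5p, 0.45 to 0.81 for miR-34c-5p and 0.038 to 0.55 for miR-449a-5p. In MS vs SS they were 0.49 to 1.17 for miR-34b-5p and 0.27 to 0.84 for miR-34c-5p. In MC vs CS they were 0.33 to 1.02 for miR-34a-5p, -0.44 to -0.10 for miR-34c-5p and -0.74 to -0.24 for miR-449a-5p. In MC vs MS they were 0.049 to 0.76 for miR-34a-5p and -0.43 to -0.0012 for miR-34c-5p. For the interaction they were 0.34 to 1.01 for miR-34a-5p, -1.11 to -0.24 for miR-34b-5p and -1.11 to -0.55 for miR-34c-5p. miRNAs called in MS vs SS numbered 19 with DESeq2, 4 in a fit of 6 libraries and 0 to 5 with a library left out (5 without MC 16), against 0, and in MC vs CS 0 to 2 (2 without MC 16). Pairs of members past the adjustment numbered 4, against 2 with TMM-scaled CPM, 1 within library set B and 0 to 5 with a library left out (0 without MC 16, and 5 without SS 14, when the arms of miR-34c passed too). The arm ratio of miR-34b and miR-34c missed the threshold under all alternatives, with the smallest adjusted p, 0.0537 for each, without SS 12 (exact permutation test). Where an arm of a comparison was left with 2 libraries, the spread was shared over all groups. No paired analysis was possible because the groups share no replicate numbers. Depth limits miR-34b-5p most, at 9 counts in MC 16.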
